A study of Mus musculus with 8 samples.

Results

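Intronic poly(A) sites (PASs) are positions within an intron at which a pre-mRNA can be cleaved and polyadenylated, so that the transcript ends before the 3′-most exon of its gene. The PASs described here were those that the deposited PAS tables give the type Intron. They comprised 2135 distinct PASs in 1552 genes, of 21906 PASs in all, where a PAS listed for several genes was counted for each of them. The tables came from NIH3T3 cells, an established line of mouse embryonic fibroblasts, under 4 conditions. NT cells were not treated. AS cells received 250 µM sodium arsenite, an agent that causes oxidative and proteotoxic stress, for 1 h. RC4 and RC8 cells received the same treatment and then recovered without arsenite for 4 h or 8 h.

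Each condition was represented by 1 QuantSeq FWD library per the labels, which holds reads that begin some distance upstream of the PAS, and MAAPER assigned these reads to PASs as the fraction of the reads of a gene in that library. There was no replicate, so no test across replicates was made, and each difference below compares 2 libraries. The 3 tables compare AS, RC4 and RC8 each with the same NT library, so the comparisons share their control. Depth was 22.4 to 23.0 M reads on genes per library. The fibroblast markers Col1a1, Col1a2, Col3a1, Thy1, Pdgfrb, S100a4 and Vim were listed in every table, and the leukocyte marker Ptprc and the epithelial markers Epcam, Cdh1 and Krt8 were listed in none. In bulk RNA, fewer cells of a type and less RNA per cell cannot be told apart.

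Cleavage at a PAS in an intron competes with splicing of that intron. U1 snRNP, which binds 5′ splice sites, is known to repress cleavage at cryptic PASs downstream of it, and the hexamer AATAAA is the main signal recognized by the cleavage and polyadenylation machinery. Transcripts that end in an intron can encode shortened proteins, such as secreted forms of membrane receptors, or can be short-lived.

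The sequences of 9 members are given in mm9, on the strand of the gene and 5′ to 3′, because they show the features by which the changes below differed. The leading 4 sequences hold the 12-mer that occurred in front of more distinct intronic PASs than any other, and the following 3 hold a stretch 1 base away from it. Capitals mark this stretch and each complete AATAAA in Tnrc6b (chr15:80699397-80699426, plus strand), Chd9 (chr8:93409928-93409957, plus strand), Atm (chr9:53328602-53328631, minus strand), Cdk12 (chr11:98067954-98067983, plus strand), Brca2 (chr5:151336926-151336955, plus strand), Plcb1 (chr2:135259016-135259045, plus strand) and Dnmbp (chr19:43981546-43981575, minus strand). For Il1rl1 (chr1:40504959-40504988, plus strand), which has a PAS at the annotated end of a shorter transcript, capitals mark AATAAA. For Taf6 (chr5:138627591-138627620, minus strand), capitals mark runs of A in the genome around the PAS, at which oligo(dT) can also prime.
Tnrc6b: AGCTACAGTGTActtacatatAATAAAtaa
Chd9: AGCTACAGTGTAtttacatataagtaaata
Atm: AGCTACAGTGTActtatataAATAAATAAA
Cdk12: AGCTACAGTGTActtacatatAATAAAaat
Brca2: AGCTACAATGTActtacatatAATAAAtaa
Plcb1: AGCTAGAGTGTActtacaaataataataat
Dnmbp: AGCTACAATGTActtacatataacAATAAA
Il1rl1: attaAATAAAattcgtgtctattgttcttg
Taf6: accAAAAAAAggaaagAAAAAAAgAAAAAA
Counted from 1 at the 5′ end of the 12-mer, the difference was G8A in Brca2 and in Dnmbp and C6G in Plcb1.

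Most members lay deep inside their genes. Of the 2135, 1115 (52.2%) were intronic in every annotated transcript that spans them, 829 (38.8%) were in an exon of another transcript of the same gene, and 167 (7.82%) were in an exon of another gene. A further 13 belonged to gene symbols that were not matched, and 11 were outside the annotated transcripts. Introns could be assigned to 2049 members, of which 400 (19.5%) were in the first and 487 (23.8%) in the last intron of the transcript. Their introns were 5933 nt long in the median, and the PAS was 1616 nt from the 5′ splice site in the median. Only 339 members (15.9%) were within 50 nt of an annotated transcript end. In genes that also listed a PAS in the 3′-most exon, the members were 12452, 13057 and 12014 nt upstream of it in the median in the AS, RC4 and RC8 tables, and only 1 or 2 per table were downstream of it.

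In sequence the members carried AATAAA about as often as PASs in 3′-most exons but stood more often next to genomic A. AATAAA was found in the 40 nt upstream of 42.5% of 2129 distinct intronic positions and of 40.6% of 18174 positions in 3′-most exons. ATTAAA without AATAAA was found at 10.5% and 12.3%. A genomic A tract, meaning a run of 8 A between 15 nt upstream and 20 nt downstream, or a run of 6 A or any 10 nt with 7 A in the 20 nt downstream, was present at 27.6% of intronic and 8.30% of 3′-most exon positions. TGTA, the core of the motif bound by CFI, was found 40 to 100 nt upstream of 39.5% of members and of 40.3% of positions in 3′-most exons. In equally long windows farther upstream of the members it was found at 24.3%. TGTGT, a GU-rich downstream element, was found in the 40 nt downstream of 12.5% of members, less often than at positions in 3′-most exons (16.1%). In equally long windows farther downstream of the members it was found at 7.28%. Each motif was searched on the strand of the gene only.

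The 12-mer AGCTACAGTGTA was found within 100 nt upstream of 238 members (11.2%) in 232 genes on 20 chromosomes, against 83 (0.457%) of the positions in 3′-most exons and 8 equally long windows farther upstream of the members. It was found by counting, over all strings of 12 letters, how many distinct intronic positions hold each, with no use of reads. A further 78 members (3.66%) had a stretch 1 base away from it. Its letters occur in the 3′ part of the B2 family of short interspersed elements, repeats that RNA polymerase III transcribes in mouse, but no repeat annotation was used here. Of the 238 members, 77.3% had AATAAA, 66.4% an A tract and 226 were intronic in every spanning transcript. Among the other members AATAAA was found at 38.2%, an A tract at 22.7% and 46.9% were intronic in every spanning transcript. The 12-mer lay close to the PAS, with a median gap of 39 nt.

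The number of members listed was 1726 in the AS, 1811 in the RC4 and 1743 in the RC8 table, which was 9.15%, 9.62% and 9.12% of the PASs. All 3 tables listed 1453 of them, 239 were in 2 tables and 443 in 1 table. A PAS is listed only where it takes enough of the reads of its gene in NT or in the treated library, so a member that is low in NT can be listed because it was higher after treatment. For this reason, the main counts and medians are also given for members listed in all 3 tables. Genes with no listed PAS in the 3′-most exon held 495, 484 and 456 members, and 232, 224 and 211 members were the single PAS of their gene, so that their fraction is always 100%. In genes with several PASs, the NT fraction of a member was 19.2%, 17.7% and 18.4% in the median in the AS, RC4 and RC8 tables, below the 34.8%, 33.7% and 34.0% of PASs in 3′-most exons. Changes were compared in genes with 2 or more PASs and at least 200 reads in each library, which left 1392, 1429 and 1426 members and set aside 102, 158 and 106 for too few reads.

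As a share of all reads on genes, intronic PASs took about as many reads in every library. They held 5.93% of the reads in NT and 5.91% in AS (1.33 M reads, 95% Wilson interval 5.90 to 5.92%). In RC4 the share was 6.30% (6.29 to 6.31%), against 5.99% in NT in the same table. In RC8 it was 5.93% (5.92 to 5.94%), against 5.92% in NT. These intervals cover counting error only, and since no molecular identifiers were used, several reads can stem from the same molecule. Members in genes without a listed PAS in the 3′-most exon contributed 45.7 to 49.1% of these reads, and there they do not compete with such a PAS. Within genes that listed both kinds, members took 33.1% of the reads in NT and 34.3% in AS, 32.3% in NT and 35.8% in RC4, and 33.7% in NT and 35.0% in RC8.

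The fraction of reads that a gene placed at an intronic PAS shifted upward in RC4 and slightly downward in RC8, and in AS slightly upward over the members of that table. In AS the median change of the members was 0.57 percentage points (95% order-statistic interval 0.29 to 0.80, n = 1392), and that of PASs in 3′-most exons was -0.10 points (n = 10836). In AS, 95 members (6.82%) gained and 54 (3.88%) lost at least 10 points, where 4.22% of all PASs compared gained and 4.33% lost that much. In percentage points the gains were thus more frequent than over all PASs and the losses were not. By a 2-fold change in the odds of the PAS within its gene, which weighs small fractions more, 99 members (7.11%) rose and 101 (7.26%) fell in AS, where 3.29% and 3.64% of all PASs did, so on that scale losses were as frequent as gains and both were above the shares of all PASs.

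In RC4 the median change was 1.48 points (1.1 to 1.87, n = 1429), against -0.10 points in 3′-most exons (n = 10786). In RC4, 228 members (16.0%) gained and 74 (5.18%) lost at least 10 points, where the shares of all PASs were 8.52% and 9.01%. In RC8 the median was -0.40 points (-0.80 to 0.00, n = 1426), against 0.10 points in 3′-most exons (n = 11135). In RC8, 90 members (6.31%) gained and 99 (6.94%) lost at least 10 points, where the shares of all PASs were 8.11% and 8.35%. Gains were therefore more frequent than over all PASs in RC4 and less frequent in RC8. Among members listed in all 3 tables the medians were 0.24 points in AS (-0.08 to 0.52, n = 1195), 0.80 points in RC4 (0.20 to 1.30, n = 1157) and -1.10 points in RC8 (-1.50 to -0.70, n = 1202), so in AS the interval then included 0. Of these, 78 (6.53%) gained and 48 (4.02%) lost at least 10 points in AS, where 4.03% and 4.47% of all PASs in the 3 tables did. In RC4 170 (14.7%) gained and 68 (5.88%) lost, where 7.97% and 9.71% of all such PASs did, and in RC8 72 (5.99%) gained and 88 (7.32%) lost, where 7.81% and 8.72% did. PASs in internal and first exons, the other kind upstream of the 3′-most exon, changed by 0.82, 1.57 and -1.68 points in the median in AS, RC4 and RC8.

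The comparison with all PASs was also made at other sizes of change and depths. At 5 points or more, 18.6% of members gained and 12.2% lost in AS, where 14.4% and 14.5% of all PASs did. In RC4 these shares were 30.4% and 14.4%, where 21.6% and 20.7% of all PASs gained and lost, and in RC8 they were 17.7% and 19.8%, against 21.0% and 20.8%. At 20 points or more, 14 members (1.01%) gained and 7 (0.503%) lost in AS, where 0.458% of all PASs gained and 0.458% lost. In RC4, 81 members (5.67%) gained and 16 lost 20 points, where 1.72% and 2.06% of all PASs did, and in RC8 7 gained and 14 lost, where 1.30% and 1.39% did. In genes with at least 500 reads, 43 of 1007 members (4.27%) gained and 18 (1.79%) lost 10 points in AS, where 2.61% and 2.81% of all PASs did. There 111 members gained and 35 lost in RC4, where 6.46% and 7.15% of all PASs did, and 48 gained and 48 lost in RC8, where 6.34% and 6.61% did. The numbers of members compared at this depth in RC4 and RC8 are not given here, so these counts cannot be read against the shares.

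**Figure D1:**
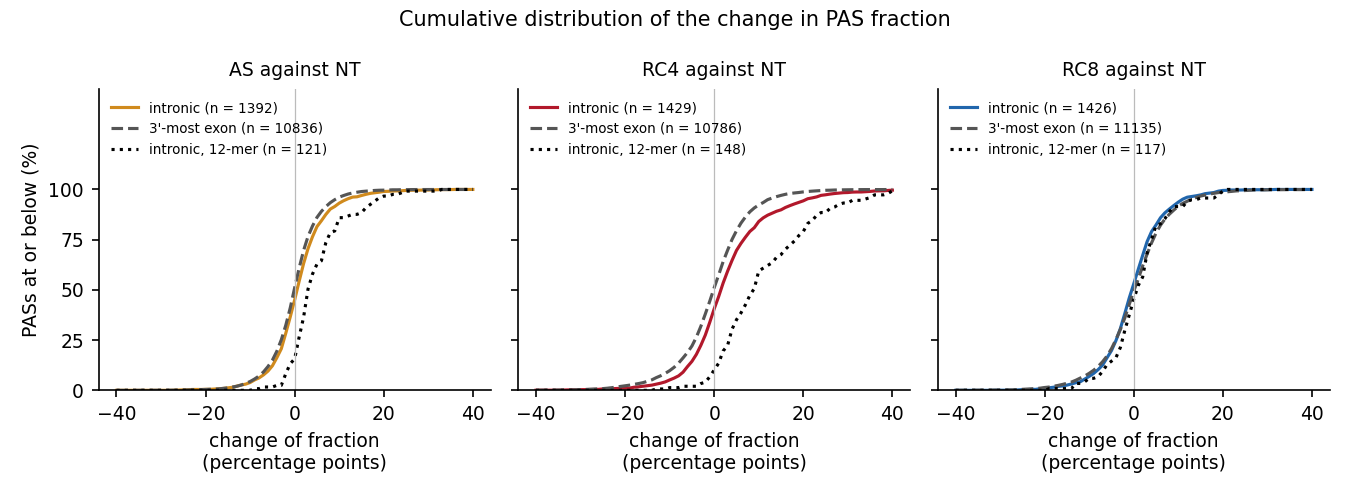
Cumulative share of PASs (vertical axis, %) at or below a change of fraction against NT (horizontal axis, percentage points) for intronic PASs, PASs of 3′-most exons and intronic PASs with the 12-mer, 1 panel per comparison. The intronic curve lies to the right of the curve for 3′-most exons in RC4 (medians 1.48 and -0.10 points), and the 12-mer curve lies farther right (8.90 points).

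To follow the members from library to library, genes that listed the same PASs in all 3 tables were used. Of these, 572 hold 743 intronic PASs with at least 200 reads throughout. The shares of all PASs are over 7425 PASs in 2969 such genes, with or without an intronic PAS. From NT to AS these changed by 0.40 points in the median (0.10 to 0.70), with 41 (5.52%) gaining and 24 (3.23%) losing at least 10 points, where 3.74% and 3.81% of all PASs of such genes did. From AS to RC4 they changed by 0.90 points (0.50 to 1.6), with 96 (12.9%) gaining and 37 (4.98%) losing, where the shares of all PASs were 6.18% and 6.45%. From RC4 to RC8 they changed by -1.86 points (-2.21 to -1.30), with 28 (3.77%) gaining and 121 (16.3%) losing, where the shares of all PASs were 8.20% and 7.85%. The members thus moved up to RC4 and back down by RC8, and PASs in 3′-most exons of the same kind of genes moved by -0.10, -0.11 and 0.22 points in these steps. The steps from AS to RC4 and from RC4 to RC8 join fractions from different tables. The NT fraction of a member differed between tables by 0 points in the median and by 2.2 to 2.32 points at the 95th percentile.

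A fraction cannot tell whether the intronic isoform rose or the others fell, so the reads per M reads on genes were compared for both in the same genes, as log2 of reads plus 1. In AS the level of intronic PASs changed by -0.01 in the median (-0.05 to 0.02, n = 920 genes) and that of the 3′-most exon by -0.12 (-0.15 to -0.09). In RC4 the level of intronic PASs changed by -0.09 (-0.14 to -0.02, n = 942) and that of the 3′-most exon by -0.41 (-0.47 to -0.36). The median gene itself changed by -0.30 in RC4, and relative to it the intronic level was 0.21 and the 3′-most exon level -0.11, so the direction for intronic PASs in RC4 depends on the scaling. In RC8 the level of intronic PASs changed by -0.13 (-0.18 to -0.09, n = 943) and that of the 3′-most exon by -0.07 (-0.11 to -0.03). The difference within a gene, which does not depend on the scaling, was 0.11 (0.07 to 0.15) in AS, then 0.29 (0.21 to 0.34) in RC4 and -0.07 (-0.14 to -0.01) in RC8. In RC4, 204 of 942 genes had a difference of at least 1 in favor of the intronic PASs and 58 in favor of the 3′-most exon. In AS these counts were 77 and 66 of 920 genes, and in RC8 66 and 95 of 943. These counts have no share over all genes beside them.

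Members far upstream of the 3′-most exon shifted more in RC4 than those near its PAS. In RC4 the median change was -0.20 points under 1 kb (-1.30 to 0.80, n = 89), 0.90 points at 1 to 5 kb (-0.20 to 1.80, n = 247) and 1.80 points at 5 to 20 kb (1.00 to 2.45, n = 381). It was 3.18 points at 20 to 50 kb (1.89 to 4.10, n = 229) and 2.51 points at 50 kb and over (1.5 to 3.70, n = 257). The share that gained at least 10 points in RC4 was 3.37% under 1 kb and 20.2% at 50 kb and over, where 8.52% of all PASs did. For members listed in all 3 tables the RC4 medians were lower, with -0.15, 0.20, 0.97, 2.55 and 1.66 points in the same order of distance. In AS the medians in the same order of distance were 0.50, 0.90, 0.20, 1.83 and 0.78 points, with no steady order. In RC8 they were -0.80, 0.44, -1.40, -0.50 and -1.09 points. In genes with no PAS listed in the 3′-most exon, members changed by -0.48 points in AS, -0.70 points in RC4 and 0.00 points in RC8 in the median, but these compete mostly with one another.

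By share in NT, the members lowest in NT had medians above 0 in every table, but the bin and the change share the NT value. Members under 5% in NT changed by 2.84 points in AS (n = 57), 4.77 points in RC4 (n = 98) and 3.29 points in RC8 (n = 64) in the median. PASs in 3′-most exons under 5% in NT changed by 2.21, 3.46 and 3.10 points in AS, RC4 and RC8. These medians turned to -2.58, -1.90 and -1.70 points for the members when bins were set by the mean fraction of NT and the treated library. Above 25%, where listing does not hinge on the treated library, the RC4 medians were 2.5 points at 25 to 50% (0.80 to 4.00, n = 268) and 1.5 points at 50% and over (-0.20 to 2.40, n = 221) by the NT fraction. PASs in 3′-most exons changed by -0.70 and -1.2 points in RC4 in these bins, so the 2 kinds of PAS moved apart. In RC8 the members changed by -1.12 points at 10 to 25%, -1.10 points at 25 to 50% and -0.50 points at 50% and over.

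**Figure D2:**
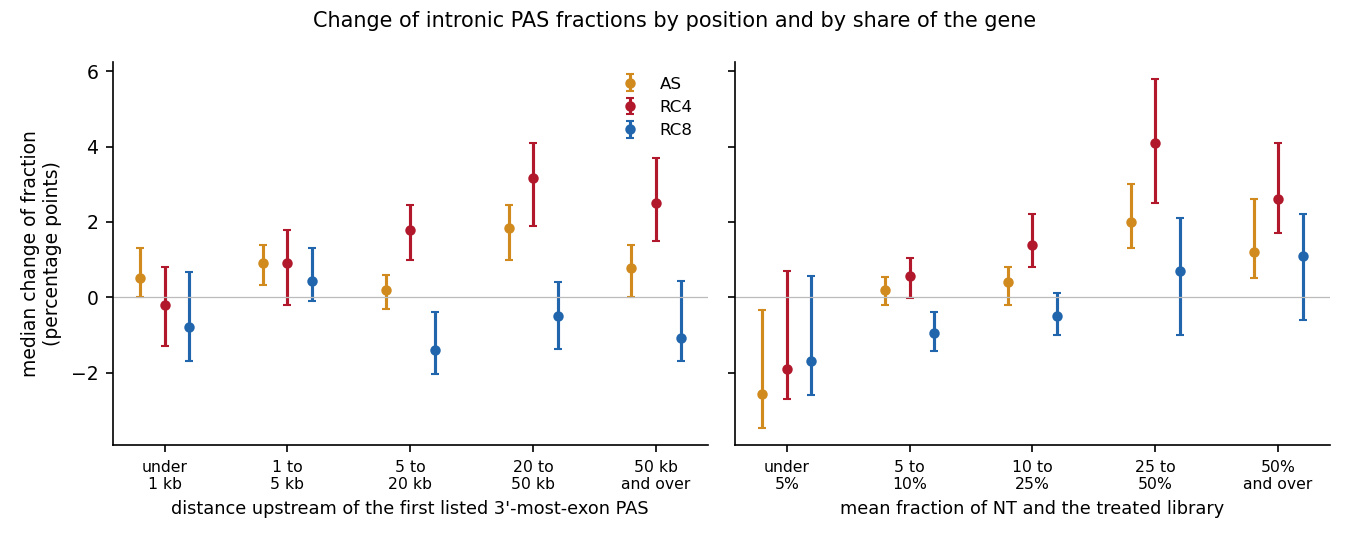
Median change of the fraction of intronic PASs against NT (vertical axis, percentage points) by distance upstream of the first listed PAS of the 3′-most exon (left) and by the mean fraction of NT and the treated library (right). Points are medians, bars are 95% order-statistic intervals over PASs and colors are AS, RC4 and RC8, with RC4 highest from 5 kb upward (1.80, 3.18 and 2.51 points).

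Where in the gene structure a member lay also went with its change. Members that were intronic in every spanning transcript changed by 0.70 points in AS (0.26 to 1.00, n = 699), 2.1 points in RC4 (1.46 to 2.78, n = 729) and -1.30 points in RC8 (-1.66 to -0.59, n = 706). In RC4, 157 of them (21.5%) gained at least 10 points and 33 (4.53%) lost as much, where 8.52% and 9.01% of all PASs did. Listed in all 3 tables, they changed by 0.30 points in AS (-0.30 to 0.71, n = 594), by 1.03 points in RC4 (0.26 to 1.63, n = 576) and by -1.70 points in RC8 (-2.1 to -1.40, n = 603). Members in an exon of another transcript of the gene changed by 0.30 points in AS (n = 573), 0.97 points in RC4 (n = 589) and 0.22 points in RC8 (n = 612). Those annotated as intron only thus covered a wider range from RC4 to RC8. This set includes 226 of the 238 members with the 12-mer, and its values are not given without them. Members in middle introns changed by 2.36 points in RC4 (1.57 to 2.89, n = 795), those in first introns by 1.06 points (0.12 to 1.82, n = 259) and those in last introns by 0.20 points (-0.61 to 1.05, n = 325). In RC8, members in first introns changed by -1.70 points (-2.30 to -0.82, n = 239), those in middle introns by -0.46 points and those in last introns by 0.30 points. For members listed in all 3 tables the RC4 medians were 1.48 points in middle introns (0.80 to 2.2), 0.085 points in first introns (-0.64 to 1.2) and -0.25 points in last introns (-1.2 to 0.80). Last introns lie nearest the end of the gene, so intron order and distance are not separate observations.

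Members with AATAAA upstream changed by 3.01 points in RC4 (2.30 to 3.90, n = 595), of which 137 (23.0%) gained at least 10 points, where 8.52% of all PASs did. Members with neither AATAAA nor ATTAAA changed by 0.67 points in RC4 (0.10 to 1.2, n = 674). PASs of 3′-most exons with AATAAA changed the other way in RC4, by -1.02 points (n = 3886). Members at an A tract changed by 2.72 points in RC4 (1.70 to 4.01, n = 388) and by -1.30 points in RC8 (-1.83 to -0.34, n = 368), whereas those without changed by 1.1 points (0.70 to 1.54, n = 1041) and -0.18 points (-0.70 to 0.30, n = 1058). The part of priming at genomic A in these values was not tested. Members with the 12-mer are counted in these sets, and of the 238 in all, 77.3% had AATAAA and 66.4% an A tract. The values by hexamer and by A tract are not given without them, so these features are not separate observations from the 12-mer. For members listed in all 3 tables the RC4 medians were 2.2 points with AATAAA (1.43 to 3.20, n = 484) and -0.10 points with neither hexamer (-0.58 to 0.50, n = 543). At an A tract they were 1.90 points (0.88 to 3.20, n = 327) and without 0.30 points (-0.10 to 0.90, n = 830).

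Members with the 12-mer shifted more in RC4 than those with AATAAA or with an A tract. With it, members changed by 2.90 points in AS (2.33 to 4.40, n = 121), 8.90 points in RC4 (6.45 to 9.80, n = 148) and 0.50 points in RC8 (-0.34 to 2.30, n = 117). In RC4, 60 of the 148 (40.5%) gained at least 10 points and 2 lost as much, where 8.52% and 9.01% of all PASs did. In AS 17 of the 121 gained and 0 lost, where 4.22% and 4.33% of all PASs did. The members without the 12-mer changed by 0.29 points in AS (-0.04 to 0.58), 0.90 points in RC4 (0.55 to 1.37) and -0.55 points in RC8 (-0.95 to -0.10). Their gains in RC4 numbered 168 of 1281 (13.1%), where 8.52% of all PASs gained. For members listed in all 3 tables the RC4 medians were 9.21 points with the 12-mer (5.49 to 12.5, n = 96) and 0.20 points without it (-0.20 to 0.80, n = 1061), and 39 of the 96 and 131 of the 1061 (12.3%) gained at least 10 points, where 7.97% of all PASs in the 3 tables did. In the genes with unchanged PAS lists, the 52 members with the 12-mer changed by 2.98 points from NT to AS, 6.30 points from AS to RC4 and -10.2 points from RC4 to RC8 in the median.

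The shift was also present in members with the 12-mer that had no A tract, which changed by 6.80 points in RC4 (3.76 to 9.80, n = 53). The 46 PASs in 3′-most exons that held the 12-mer and could be compared changed by 5.46 points in RC4 (0.23 to 9.67). In reads, the members with the 12-mer together rose from 2242 to 3264 RPM (reads per M reads on genes of the library) in RC4, 1.46-fold, while the ratio for all other members was 1.04. These sums hold members listed because they were high in RC4. Over the 139 such members listed in all 3 tables the sum went from 1916 to 2674 RPM in RC4, 1.40-fold, and that of the other members 1.03-fold. The ratios of these 139 and of the others were 1.19 and 0.987 in AS and 1.00 and 0.999 in RC8. In genes with such a member, the log2 level of intronic PASs in RC4 changed by 0.53 (0.40 to 0.70, n = 131 genes) and that of the 3′-most exon by -0.52 (-0.62 to -0.44), so both isoforms moved, and did so relative to the median gene as well (0.83 and -0.22). Without members that hold the 12-mer, the order by distance in RC4 remained, with -0.35 points under 1 kb, 0.40 at 1 to 5 kb, 1.48 at 5 to 20 kb, 2.38 at 20 to 50 kb and 1.72 at 50 kb and over.

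**Figure D3:**
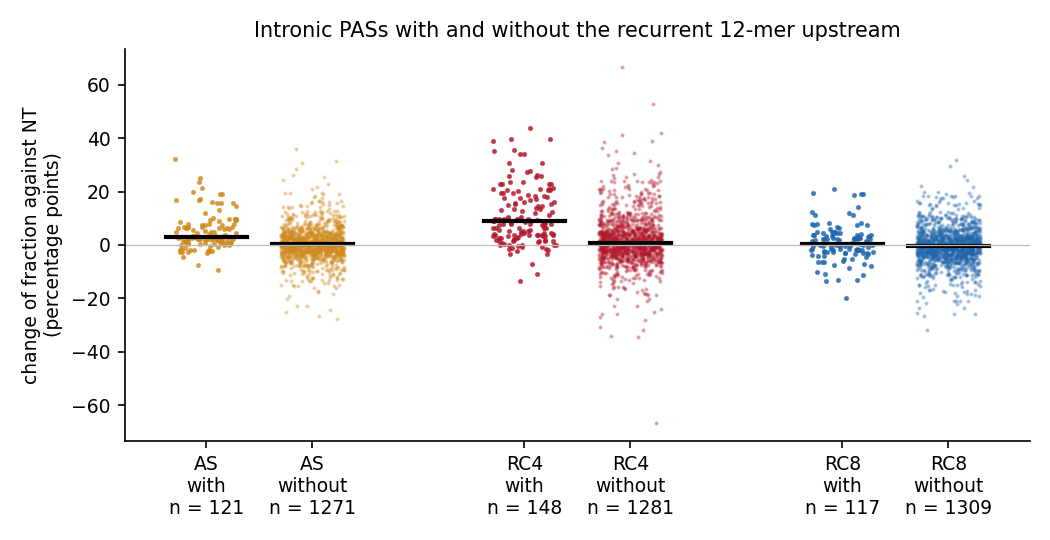
Change of the fraction against NT (vertical axis, percentage points) of each intronic PAS with or without the 12-mer within 100 nt upstream, by comparison. Points are PASs with horizontal jitter and black lines are medians, which with the 12-mer were 2.90, 8.90 and 0.50 points in AS, RC4 and RC8.

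Single members with the 12-mer, or with a stretch 1 base away from it, mostly had their highest fraction in AS or RC4. They are named because they had the largest changes or belong to a fixed gene list, so their values are a description. Tnrc6b, a scaffold of microRNA silencing, has 5 listed PASs, and the member in intron 4 (chr15:80699434) took 19.5% of its reads in NT (95% Wilson interval 17.6 to 21.6%) and 44.5% in AS (41.2 to 47.9%), then 63.1% in RC4 (60.1 to 66.0%) and 27.1% in RC8 (24.6 to 29.7%). Its level rose from 12.8 RPM in NT to 28.1 in RC4, while that of the most distal PAS in the 3′-most exon fell from 27.1 to 5.91. In Chd9, a chromodomain helicase, the member in intron 2 (chr8:93409964) took 17.1 to 17.2% in NT and 49.3% in AS, then 26.9% in RC4 and 15.6% in RC8, so it was highest in AS. In Trappc8, a subunit of a vesicle tethering complex, the member took 35.9% in NT, 47.9% in AS and, in recovery, 63.7% in RC4 and 56.7% in RC8.

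Brca2, needed for homologous recombination, has the G8A form of the stretch upstream of its member in intron 7 (chr5:151336988). This member took 33.3% in NT (29.2 to 37.7%) and 50.9% in AS (46.2 to 55.6%), followed by 71.8% in RC4 (66.7 to 76.4%) and 50% in RC8 (45.0 to 55.0%). Its level rose from 6.98 to 10.1 RPM from NT to RC4 and that of the 3′-most exon fell from 14.0 to 3.98 RPM. In Plcb1, a phospholipase C, the member in the last intron (chr2:135259107) took 34.2% in NT and 64.7% in AS, then 58.7% in RC4 and 39.4% in RC8. Dnmbp, a scaffold protein that activates Cdc42, has the G8A form as well but took another course, with 60.0% in NT, 61.0% in AS and, in recovery, 63.7% in RC4 and 36.6% in RC8.

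Other members with large gains did not hold the 12-mer itself. In Taf6, a subunit of TFIID, the member in the first intron (chr5:138627611) took 7.72% in NT (5.70 to 10.4%) and 13.1% in AS, followed by 60.4% in RC4 (55.8 to 64.8%) and 18% in RC8. It stands at the A runs shown above, and the level of the 3′-most exon fell from 20.7 to 7.77 RPM in RC4 while that of the member rose from 1.73 to 11.8 RPM. In Iqce, a ciliary protein, the member in intron 3 (chr5:141171126) took 43.9% in NT and 48.3% in AS, then 85.8% in RC4 and 31% in RC8. In Dnajc12, a J-domain co-chaperone, the member in intron 3 (chr10:62866313) took 52.0% in NT, 52.4% in AS and, in recovery, 93.0% in RC4 and 81.6% in RC8, so it remained high at 8 h. Cpne1, a phospholipid-binding protein, took 44.4% in NT and 48.7% in AS, followed by 70.0% in RC4 and 68.9% in RC8 at a member (chr2:155920618) that lies in an exon of the overlapping gene Rbm12.

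In 5830417I10Rik and Snhg3 the fraction was high in AS and close to NT again in RC4. The uncharacterized gene 5830417I10Rik had 10.1% of its reads at the member in intron 7 (chr3:88603933) in NT (8.29 to 12.3%) and 46.1% in AS (42.6 to 49.6%), then 9.95% in RC4 and 2.64% in RC8. Snhg3, a host gene of small nucleolar RNAs, had 50.8% in NT and 82.4% in AS, then 52.5% in RC4 and 45.1% in RC8 at a member that lies in the exon of Snora73b (chr4:131908236). The level of the Snhg3 member rose from 34.0 to 97.1 RPM in AS.

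Members with large losses had no course in common. Tiam2, a Rac exchange factor, had 48.9% of its reads at the member in the first intron in NT and 23.7% in AS, then 32.5% in RC4 and 32.5% in RC8. Fmnl2, a formin, had 35.6% in NT, 12.6% in AS and, in recovery, 19.9% in RC4 and 26.2% in RC8, also in the first intron. Fbxl17, an F-box protein, had 45.2% in NT and 27.5% in AS, followed by 51.3% in RC4 and 33.9% in RC8. The members of these 3 genes lie far upstream of the first listed PAS of the 3′-most exon, by 148178, 263428 and 414947 nt in Tiam2, Fmnl2 and Fbxl17.

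Among the losses in recovery, Orc5, a subunit of the origin recognition complex, had 35.8% in NT and 31.4% in AS, then 10.6% in RC4 and 9.79% in RC8 at a member that lies in the pseudogene Gm15421. Another Orc5 member (chr5:22034042) went from 44.2% in NT to 67.5% in RC4 and was at 42.8% in RC8. Nectin3, a cell adhesion receptor, had 36.2 to 36.4% in NT, 19.1% in AS and, in recovery, 16.0% in RC4 and 15.6% in RC8. All listed PASs of Nectin3 are members, and the one at chr16:46447331 went from 18.6% in NT to 36.5% in RC4. Hhla1 had 66.1% in NT and 58.9% in AS, followed by 31.5% in RC4 and 61.8% in RC8. Both listed PASs of Hhla1 are members, and the other one went from 33.9% in NT to 68.5% in RC4. The 3110043O21Rik gene, the mouse ortholog of C9orf72, had 71.7 to 71.8% in NT and 72.7% in AS, then 44.7% in RC4 and 60.4% in RC8, while the level of the member stayed at 34.6 to 36.3 RPM, so that the change came from the other PAS of the gene.

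For 3 more members the number of PASs listed for the gene differed between tables, which moves the NT fraction without any change in reads. Rabgap1l, a GTPase activator for Rab proteins, had 87.6 to 100% in NT, 68.6% in AS and, in recovery, 53.7% in RC4 and 100% in RC8. Armc9, a ciliary protein, had 94.5 to 100% in NT and 100% in AS, followed by 63.8% in RC4 and 100% in RC8. All listed PASs of Rabgap1l and of Armc9 are members, so these fractions moved between intronic PASs. Alg13, an enzyme of N-glycan assembly, had 61.0 to 72.7% in NT and 79.7% in AS, then 51.8% in RC4 and 34.6% in RC8. In Gpx4, which reduces lipid hydroperoxides, both listed PASs are members and exchanged reads at RC8, where the downstream PAS (chr10:79518854) went from 44.5 to 44.9% in NT to 70.4% and the upstream one (chr10:79518666) from 55.1 to 55.5% to 29.6%.

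**Figure D4:**
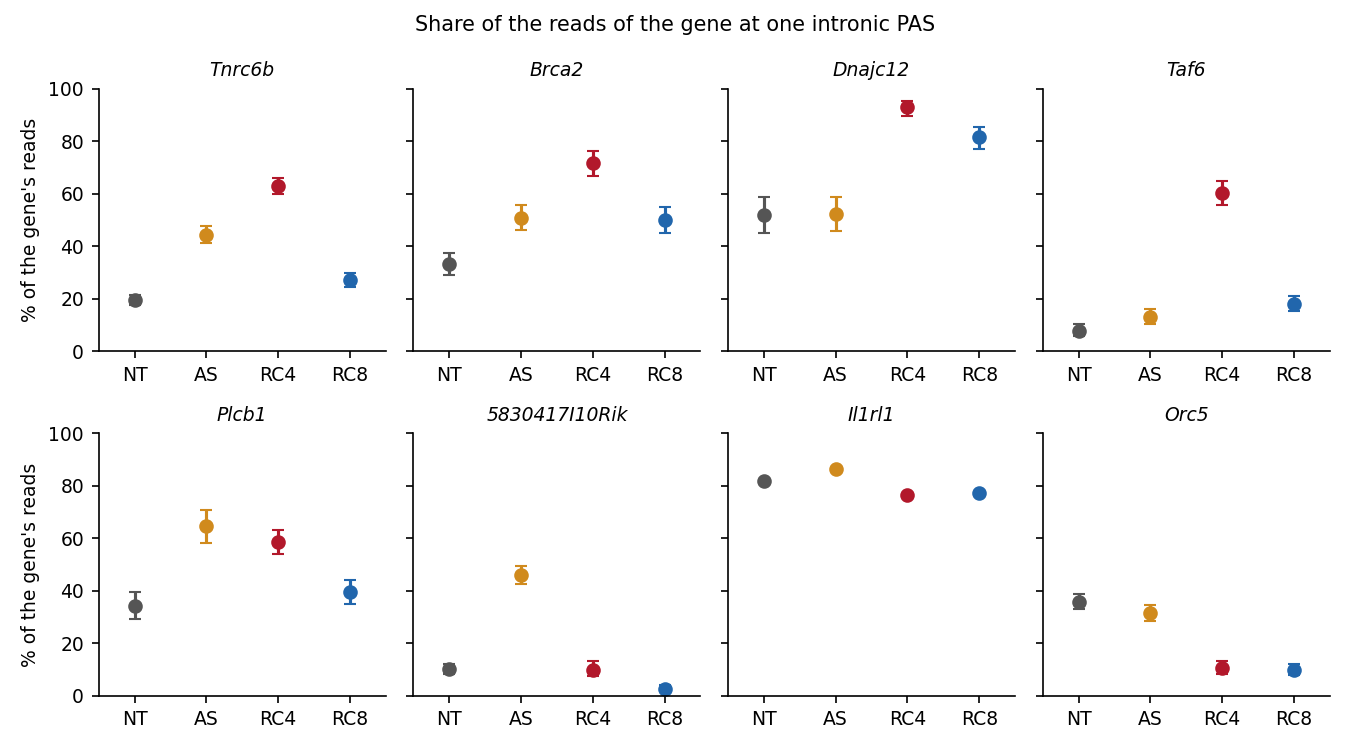
Share of the reads of the gene (vertical axis, %) at the intronic PAS of 8 genes in NT, AS, RC4 and RC8. Points are the deposited fractions and bars are 95% Wilson intervals from the reads of the gene, with Tnrc6b at 19.5, 44.5, 63.1 and 27.1% and Orc5 at 35.8, 31.4, 10.6 and 9.79%.

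Fixed gene lists related to the process held few members. In RC4, 8.52% of all PASs gained and 9.01% lost at least 10 points, and the lists are too short to be read against these shares. Of 8 genes with described intronic polyadenylation, 3 had members, and in RC4 0 of the 5 compared changed by 10 points. Cstf3, a subunit of the CstF complex, had 23.7 to 24.5% in NT, 20.6% in AS and, in recovery, 17.1% in RC4 and 14.6% in RC8 at the member in intron 3 that is an exon of another transcript (chr2:104449586). A second Cstf3 member, in the first intron (chr2:104448901), holds the 12-mer and was listed in the RC4 table only, with 3.5% in NT and 12.5% in RC4. Another Cstf3 member (chr2:104471905) also holds the 12-mer but did not rise in RC4, with 9.02 to 9.35% in NT and 8.86% in RC4. Pcf11, a termination factor, had 27.3% in NT and 16.7% in AS, followed by 28.1% in RC4 and 20.5% in RC8 at the member in its first intron. Of 23 cleavage and polyadenylation factors, 7 had members, and in RC4 0 of 9 gained or lost 10 points.

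Among 6 genes of U1 snRNP and Luc7-like proteins, Luc7l and Luc7l2 had members. Luc7l had 45.6% in NT and 45.9% in AS, then 53.0% in RC4 and 30.6% in RC8 at a member of intron 5 (chr17:26407376), and 29.3%, 32.3%, 22.2% and 40.2% at the member of the last intron (chr17:26417665), so the 2 members moved in opposite directions. Of 12 SR proteins only Srsf10 had a member, with 13.3% in NT, 16.3% in AS and, in recovery, 13.6% in RC4 and 6.12% in RC8.

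Of 10 DNA repair genes, 3 had members, and both that were compared in RC4 gained at least 10 points, where 8.52% of all PASs did. Besides Brca2 this was Atm, the kinase that responds to double-strand breaks, which had 13.4 to 13.7% in NT and 21.3% in AS, followed by 30.2% in RC4 and 18.7% in RC8 at the member in intron 7 (chr9:53328590). Of 15 transcription elongation genes 2 had members, and 1 of these gained 10 points in RC4. This was Cdk12, a kinase of the RNA polymerase II tail known to sustain the transcription of long genes, with 9.92 to 10.1% in NT and 12.5% in AS, then 27.8% in RC4 and 12.6% in RC8 in intron 2 (chr11:98068001). Both of these members hold the 12-mer, as shown above. In 16 arsenite-inducible genes the only member was in Gclm, a subunit of the enzyme of glutathione synthesis, at a member (chr3:121960356) that shares 83.3% of its 31-mers with Ppia in the comparison of sequences described below. It had 94.5% in NT and 88.4% in RC4.

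A few members held much of the intronic reads, with 26.3 to 29.7% of them at the top 10 PASs of a library, and the 5 members with most NT reads are given here by their levels. Vmp1, Rps19 and Cpeb1 have no other listed PAS, so that their fraction cannot change. Vmp1, an autophagy protein, had 2525 to 2531 RPM in NT, 2764 in AS and, in recovery, 2781 in RC4 and 1752 in RC8 at a member in the pseudogene Gm11478. Il1rl1, the receptor of interleukin-33, whose shorter transcript encodes a soluble form, had 2271 to 2275 RPM in NT and 2259 in AS, followed by 2897 in RC4 and 3061 in RC8 at the member in intron 8 (chr1:40504990). Its fraction was 81.9 to 82.0% in NT and 86.2% in AS, then 76.5% in RC4 and 77.3% in RC8, while reads of the 3′-most exon rose as well, from 503 to 890 RPM in RC4. Rps19, a ribosomal protein, had 2191 to 2196 RPM in NT and 2396 in RC4, and Ddah1, which degrades methylated arginines, 2011 to 2016 in NT and 2071 in RC4. Cpeb1, an RNA-binding protein, had 1246 to 1249 RPM in NT, 542 in AS and, in recovery, 697 in RC4 and 1323 in RC8.

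Some of these PASs lie in sequence that is also found in the transcripts of another gene. Members that share at least 50% of the 31-mers of the 300 nt before them with transcripts of a protein-coding gene elsewhere numbered 111 (5.20%), against 138 of 18269 PASs (0.755%) in 3′-most exons. Of the 111, 87 are intronic in every spanning transcript and 77 stand at an A tract. This definition was chosen after the reads of the members had been seen. The 111 members held 30.8% of the intronic reads in NT and 32.0% in AS in the AS table, 30.5% in NT and 33.7% in RC4 in the RC4 table, and 30.7% in NT and 30.1% in RC8 in the RC8 table.

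The largest rise in reads of any member was of this kind. The member of Ssh2, a phosphatase of cofilin, lies in the pseudogene Gm12346 (chr11:77107581), whose preceding 300 nt are shared to 100% with Hsp90aa1, the inducible cytosolic HSP90. It had 597 to 599 RPM in NT and 779 in AS, followed by 3118 in RC4 and 1473 in RC8. It contributed 2519 of the 3088 RPM by which all members together rose in RC4. Without it the intronic share in RC4 was 6.01%, against 5.93% in NT. The log2 change of the Ssh2 member in RC4 was 2.38, and that of the Hsp90aa1 gene, from 980 to 5226 RPM, was 2.42.

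Other members moved with the gene they resemble in RC4. The member of Aldh18a1, an enzyme of proline synthesis, changed by 1.36 on the log2 scale in RC4 and Ptp4a1, with 88.9% of 31-mers shared, by 1.29. The member of Psmd13, a proteasome subunit, changed by 1.68 in RC4 and Dnaja1, a co-chaperone with 99.6% shared, by 1.95. The Cpeb1 member changed by -0.84 in RC4 and Zfp36l2, an mRNA decay factor with 95.2% shared, by -1.08. These 3 were picked after their values were seen.

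Over such members with at least 50 reads, the log2 change went with that of the gene sharing the sequence with Pearson's r = 0.77 and Spearman's rho = 0.59 in RC4 (n = 90), and with r = 0.71 without Ssh2 (n = 89). In AS the values were 0.43 and 0.34 (n = 91) and in RC8 0.42 and 0.36 (n = 84). Against the 3′-most exon of the host gene they were 0.25 and 0.23 in RC4 (n = 42), 0.08 and 0.10 in AS (n = 43) and 0.11 and 0.02 in RC8 (n = 44). In the 38 members with both values, r in RC4 was 0.72 with the gene sharing the sequence and 0.23 with the host gene. These are correlations across members, which share both libraries and are not independent replicates. Whether the reads came from the intron or from the other gene was not tested.

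Leaving out all 111 members made the share of intronic reads nearly the same in each library, with 4.18% in NT and 4.10% in AS, 4.24% in NT and 4.27% in RC4, and 4.18% in NT and 4.22% in RC8. The changes in fraction within genes rest little on them, since 57 of the 1429 members compared in RC4 are of this kind and 9 of these gained at least 10 points, where 8.52% of all PASs did. Of the members named above, Vmp1 shares 51.9% of its 31-mers with Rpl13a, Ddah1 93.3% with Rpl36a and the Luc7l member of intron 5 71.1% with Pabpc1. The Luc7l member changed by -0.61 on the log2 scale in RC8 and Pabpc1 by -0.40. The Hhla1 member that fell in RC4 shares 88.1% of its 31-mers with Snrpc and the 3110043O21Rik member 93.7% with Gm6139. The Orc5 member in Gm15421, with 49.3% shared with Rpl22l1, lies just below the limit of 50%. The other Orc5 member, with 60.4% shared, lies above it. The members of Tnrc6b, Taf6, Iqce, Dnajc12, Atm and Cdk12 are not in this set.

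**Figure D5:**
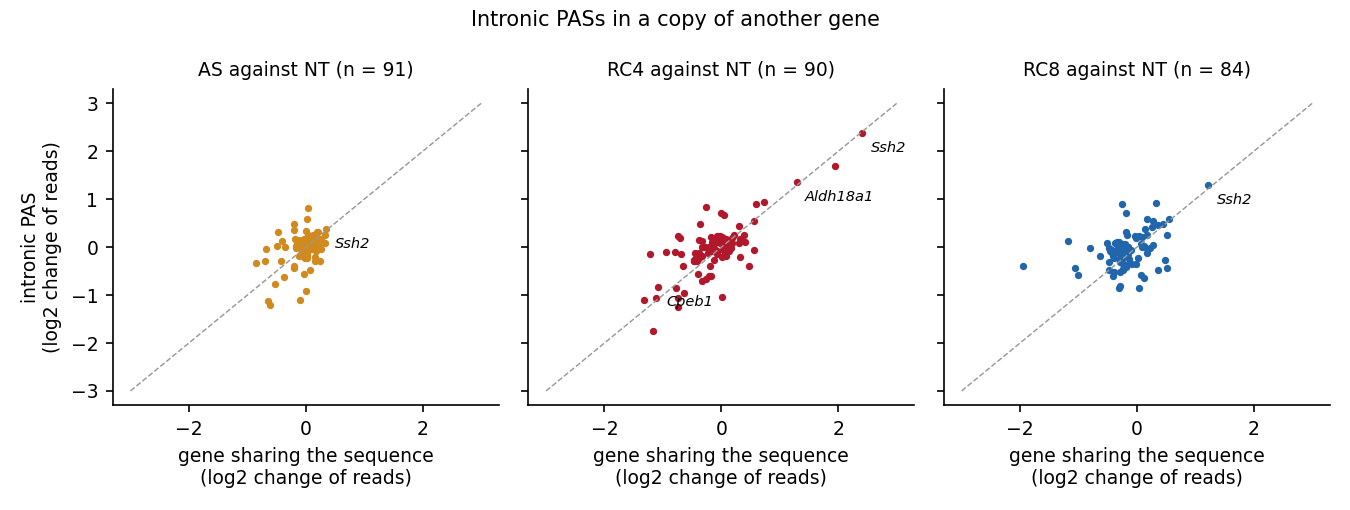
Log2 change of RPM of intronic PASs in sequence shared with another gene (vertical axis) against that of the gene sharing the sequence (horizontal axis), 1 panel per comparison. Points are PASs with at least 50 reads and the dashed line marks equal change, near which Ssh2 lies in RC4 (2.38 and 2.42).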

How the data were processed

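The authors prepared QuantSeq libraries from total RNA, trimmed reads with bbmap, mapped them to mm9 with STAR 2.5.2a and ran MAAPER with PASs of PolyA_DB v3, considering genes with at least 50 reads and selecting PASs at a proportion of 5% (the lowest fraction of a listed PAS in its higher library was 2.85%). For each gene the authors deposited raw read counts without normalization, in columns named c1 and c2 with 2 columns for each. What the 2 columns are is not given in the sources used here, and they were added. Condition c1 was taken as NT, from the methods and because its reads are nearly equal in the 3 tables, and c2 as the library that names the table. For each PAS the authors gave the fraction of the reads of its gene in either library. Deposited P values of LRT and Fisher tests and RED and RLD scores, the authors' own comparisons, were not used. The 4 QuantSeq REV libraries were not analysed here.

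Reads of a PAS were the fraction times the gene's reads. Counts, shares with 95% Wilson intervals, and medians with order-statistic intervals were computed in Python 3.11.15 with pandas 2.3.3, numpy 2.4.6 and scipy 1.17.1. Counts of gains and losses and median changes were also computed on simulated reads with known fractions. These reads were drawn directly from the fractions, so neither the assignment of reads to PASs nor the listing of PASs was simulated. The intervals and read shares were not computed on such reads. Introns and exons were taken from GENCODE M1 on mm9, with 805 symbols matched through RefSeq synonyms and 38 members in genes not found there. Named members, listed in all 3 tables with at least 200 reads throughout, were the 4 largest gains and losses in each comparison, the 5 with most NT reads, the 3 with the largest summed gains and losses, and the fixed gene lists. The members and lists were chosen with earlier results of these data known. Alternatives covered thresholds, read minimums, PAS sets, A tracts, bins, scaling and pseudocount.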

Additional observations from a re-analysis of the deposited data

Results flagged for a closer look

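In several sets of intronic PASs the median change of fraction against NT lay above 0 in RC4 and below 0 in RC8, with both 95% intervals excluding 0. The difference between RC4 and RC8 was not tested, and both share the NT library. Members without the 12-mer changed by 0.90 points in RC4 and -0.55 points in RC8. Members with neither AATAAA nor ATTAAA changed by 0.67 and -0.85 points, and those at an A tract by 2.72 and -1.30 points. Members 5 to 20 kb upstream of the 3′-most exon PAS changed by 1.80 and -1.40 points. Those in the first intron changed by 1.06 and -1.70 points, those in introns of 2 to 10 kb by 1.90 and -0.70 points, and those intronic in every spanning transcript by 2.1 and -1.30 points. These sets overlap, so they are not separate observations. Among members listed in all 3 tables the RC4 median without the 12-mer was 0.20 points (-0.20 to 0.80), that with neither hexamer -0.10 points (-0.58 to 0.50) and that in the first intron 0.085 points (-0.64 to 1.2), so in these 3 sets the interval in RC4 then included 0.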

How the results depend on the processing

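No paired analysis was possible because each condition has 1 library. Of 192 alternative values, 115 stayed within the error or 1.5 times the count of the reported one and 73 moved. The remaining 4 turned sign where the reported interval did not span both signs. Other values whose reported interval spanned both signs also changed sign but are counted as moved or as stayed. Among those that moved, the RC8 median at 25 to 50% went from -1.10 to 0.70 points with bins by the mean of both libraries. The intronic level in AS went from -0.01 to 0.03 when scaled to the median gene. The causes of these changes were not tested unless fewer PASs or genes entered by construction. All 30 values by distance stayed, where the alternatives were the distance to the last PAS of the exon and genes with at least 50 reads. Members listed in all 3 tables were not among these alternatives. For them the RC4 median at 5 to 20 kb was 0.97 points, below the interval reported for all members of the RC4 table. Depth limits single members to about the widths of their Wilson intervals, and no interval covers variation between cultures.

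The share of intronic reads in AS, RC4 and RC8 was 5.71, 6.10 and 5.78% for PASs at 10% or more, 5.88, 6.27 and 5.92% for genes with at least 200 reads, 7.76, 7.60 and 7.56% for genes with 2 or more PASs (7.58, 7.60 and 7.73% in NT, so that RC4 no longer exceeded NT and AS did), 5.96, 6.26 and 6.03% for PASs in all 3 tables, 5.48, 5.66 and 5.47% without PASs listed for several genes and 4.83, 5.21 and 4.95% without A tracts. It was 4.10, 4.27 and 4.22% without members in a copy of another gene, 5.84, 6.01 and 5.79% without Ssh2 and 5.68, 5.99 and 5.74% without the 12-mer, alternatives chosen after seeing the data. As a mean over genes it was 6.26% in AS and 6.85% in RC4.

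Gains in AS, RC4 and RC8 numbered 259, 434 and 252 at 5 points, 14, 81 and 7 at 20 points and 43, 111 and 48 with at least 500 reads, and losses numbered 170, 206 and 282, then 7, 16 and 14, then 18, 35 and 48. By a 2-fold change in the odds, losses in AS numbered 101. Without A tracts, gains were 51 in AS and 127 in RC4. Restricted to introns of every transcript (chosen after seeing the data), gains were 59 in AS and 42 in RC8, and losses 33, 33 and 53 in AS, RC4 and RC8.

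Median changes in PASs of all 3 tables were 0.24, 0.80 and -1.10 points in AS, RC4 and RC8. Chosen after seeing the data, the medians without any of 174 recurrent 12-mers were 0.10 points in AS and 0.60 in RC4, without the 12-mer 0.90 in RC4, and in introns of every transcript 2.1 in RC4 and -1.30 in RC8. With bins by the mean of both libraries, those under 5% turned to -2.58, -1.90 and -1.70 points, RC4 gave 1.40, 4.10 and 2.60 points in the 3 highest bins, and RC8 gave -0.95, -0.50 and 0.70 points at 5 to 10%, 10 to 25% and 25 to 50%. Scaled to the median gene, intronic levels changed by 0.03 in AS and turned to 0.21 in RC4 (log2), and 3′-most exon levels changed by -0.08 and -0.11. Without genes that have the 12-mer the intronic level in RC4 changed by -0.18.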

Other observations

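Among members not described above, 2 with large changes in reads were the only listed PAS of their gene, so the change is also that of the gene. They were picked after their values were seen. The member of Atp2a2, the calcium pump of the endoplasmic reticulum, rose from 277 to 661 RPM in RC4 and to 497 in RC8, and lies in an exon of another transcript. The member of Ahnak, a large scaffold protein, had 957 RPM in NT and 291 in AS.

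By intron length, the RC4 medians were 0.57 points for introns under 2 kb (-0.10 to 1.30, n = 309), 1.90 points at 2 to 10 kb (1.41 to 2.60, n = 591), 1.63 points at 10 to 50 kb (0.90 to 2.60, n = 343) and 0.93 points at 50 kb and over (-0.58 to 2.60, n = 136). By distance from the 5′ splice site they were 0.80 points under 1 kb (0.19 to 1.37, n = 555) and 2.07 points at 1 to 3 kb (1.35 to 3.12, n = 325). Members in exons of another gene changed by -0.10 points in RC4 (-1.50 to 1.70, n = 99).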
